A study of Rattus norvegicus with 6 samples.

Results

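The 39 genes described here encode the proteins that carry a cell through mitosis, among them Mki67, Top2a, Cdk1, the B-type cyclins, the Aurora and Polo kinases, the spindle checkpoint, the mitotic kinesins and the cytokinesis machinery. They were chosen by gene symbol, as a list of known function, with earlier results of these data known. Of the 39, 37 had a row among the 17327 gene symbols in the count files. Kif4a and Anln matched no row of the count files, by symbol or by RefSeq synonym, so their expression is not analysed here, although both have a promoter entry. Of the 37, 35 had enough counts to be tested, and Nek2 and Racgap1 did not. The cells were primary Schwann cells, the glia that ensheathe peripheral axons, purified from sciatic nerves of adult female Wistar rats. All 6 samples were kept in low-serum medium with 10 μM forskolin, which raises cAMP, and were starved for 18 h before treatment. Mock samples (n = 3) then received the resuspension buffer, PBS with BSA, and treated samples (n = 3) received 10 nM soluble NRG1β1 (called NRG1 here), a ligand of the ErbB receptors, both for 6 h. Before the starvation, the cells were routinely grown in serum medium that also held NRG1 and forskolin, and they were confluent when starved. Mock cells had thus met NRG1 earlier too. Each of 3 independent cell preparations, called cultures 1, 2 and 3, gave 1 mock and 1 NRG1 sample.

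Most mitosis genes are transcribed in waves, silent in resting and G1 cells and switched on in late S phase and G2 by the MuvB complex with B-Myb and FoxM1. Their mRNA is therefore often read as a measure of how many cells of a population are cycling. Neuregulin is a classical mitogen of cultured Schwann cells, and forskolin enhances that effect, but a cell leaving quiescence must first pass through G1 and S phase before it needs this machinery. Many of these promoters carry the cell cycle homology region (CHR), which MuvB binds, and CCAAT boxes, which NF-Y binds.

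These elements were found in the RefSeq promoter table (build GRCr8), in windows from 250 bases before to 50 after each start. A CHR (TTTGAA or TTCGAA, either strand) was present in 23 of the 33 members with a promoter entry, or 69.7%, against 12.8% of the promoters of the tested genes and 19.5% of all promoters. A CCAAT box on either strand was present in 69.7% of the members and 37.8% of the tested genes, and both elements together in 51.5% and 5.43%. An E2F core (TTCCCGC or TTGGCGC, either strand) was present in 21.2% of the members against 12.8% of the tested genes. A match of letters is a description and not a shown binding site. The stretch of 150 bases before the start is given for the 3 members with the smallest p-values in the NRG1 comparison below, 5′ to 3′ along the gene, with each CHR and CCAAT match in capitals (ATTGG is CCAAT on the other strand). The regions are chr3:127057145-127057294 (plus strand), chr8:71320585-71320734 (minus strand) and chr1:143659331-143659480 (plus strand) of GRCr8. The CHR of Nusap1 lies just after the start and is not shown. Nuf2, the member with the next smallest p, is not printed. Its 150 bases before the start held no match to either element. Its window had no CCAAT box and 1 CHR, at position 29 after the start.
Nusap1: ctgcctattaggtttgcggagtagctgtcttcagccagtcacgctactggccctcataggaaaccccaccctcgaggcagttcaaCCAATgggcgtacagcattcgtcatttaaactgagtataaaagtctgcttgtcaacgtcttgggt
Kif23: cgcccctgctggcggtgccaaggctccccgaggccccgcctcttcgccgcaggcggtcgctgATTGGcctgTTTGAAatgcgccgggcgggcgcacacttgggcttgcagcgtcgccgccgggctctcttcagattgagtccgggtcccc
Prc1: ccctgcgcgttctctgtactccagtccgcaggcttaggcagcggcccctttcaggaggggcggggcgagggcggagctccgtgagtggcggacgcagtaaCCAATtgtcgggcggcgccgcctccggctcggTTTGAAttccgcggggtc

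The libraries held between 6821590 and 15475018 counts on genes, so that 3 counts, taken as the floor, corresponded to 0.19 to 0.44 CPM (counts per 1000000 counts on genes). The 37 members were weakly counted, with a median of 54 counts and 5.88 CPM per sample against a median of 37.2 CPM over the tested genes, and counting error alone gives a coefficient of variation of 13.6% at 54 counts. The cultures were not alike in their cell type markers. The summed level of 8 Schwann cell markers was 4757 to 6063 CPM in culture 1 and 12710 to 16260 CPM in cultures 2 and 3, and none of the 8 was at 0. Of 8 fibroblast markers, Thy1, Dcn and Lum were counted in both samples of culture 1 and in no sample of cultures 2 and 3. Col3a1 was at 21800 and 22500 CPM in culture 1 against 170 to 830 CPM elsewhere. Pdgfra was at 846 and 800 CPM against 0.147 to 1.62 CPM. In all 6 samples, Col1a1 was at 13500 to 31000 CPM and Fbln1 at 3.05 to 7.95 CPM. The 8 summed to 51960 and 55830 CPM in culture 1 and to 13780 to 22130 CPM elsewhere. The 8 smooth muscle and pericyte markers summed to 3231 and 3267 CPM in culture 1 against 232.0 to 412.5 CPM elsewhere. Macrophage and endothelial markers (8 each) summed to at most 15.25 CPM in any sample, with Ptprc and Pecam1 at 0 in all. A 0 in these files need not mean silence, since Col1a2 was at 0 in 5 samples and at 0.226 CPM in the other, beside 13500 CPM or more of its partner Col1a1.

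After 6 h of NRG1, no mitosis gene changed at the level used to call a gene here. With edgeR's quasi-likelihood test, the culture as a block and an adjusted p of at most 0.01, 0 of the 35 tested members were higher and 0 were lower, against 6.31% and 5.51% of the 9740 genes tested (11.8% in either direction). With the further requirement of an absolute log2 fold change over 1, the counts were again 0, against 3.47% of all genes. Without adjustment, 4 of the 35 (11.4%) had p under 0.05, against 35.7% of all genes, and DESeq2 with the same block also called 0, with 2 members at an unadjusted p under 0.05. At an adjusted p of at most 0.05, 2 members passed, Kif23 upward and Nusap1 downward, against 23.2% of all genes. These shares do not compare genes of like precision. The members had a median of 5.88 CPM and a median SE of 0.23, against 37.2 CPM and 0.14 over all tested genes. Mock and NRG1 levels overlapped in all 37 members, while 19.2% of the tested genes had groups that did not overlap. That comparison ignores the pairing by culture. Among mock samples, culture 2 was highest in 83.8% of the members against 23.9% of the tested genes. With such a spread between cultures, overlap cannot show whether NRG1 changed a member.

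The fitted log2 fold changes of the members lay between -0.89 and 0.57, with a median of -0.16, against a median of -0.03 over all tested genes. Below 0 were 29 of the 35 (82.9%, against 52.8% of all genes). This lean was not seen in every culture. The log2 ratio was below 0 in 28 of 35 members in culture 1 and in 29 in culture 3, but in 18 in culture 2. Of all tested genes, 53.6%, 52.4% and 50.9% were below 0 in cultures 1, 2 and 3. The median ratios of the members were -0.22, -0.01 and -0.29. The ratio was below 0 in all 3 cultures in 12 members (34.3%, against 29.9% of all genes). It was above 0 in all 3 in 1 member, Kif23 (2.86%, against 26% of all genes). The 95% interval of the fold change lay between halving and doubling, that is within ±1 on the log2 scale, in 29 of the 35. The same held for 8156 of all 9740 tested genes, a similar share. In the other 6 members, Ccnb2, Aurkb, Nuf2, Cdca3, Kif15 and Nusap1, the interval reached below -1, and it reached 1 in none. Of the 9740 tested genes, it reached -1 in 974 and 1 in 611.

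**Figure D1:**
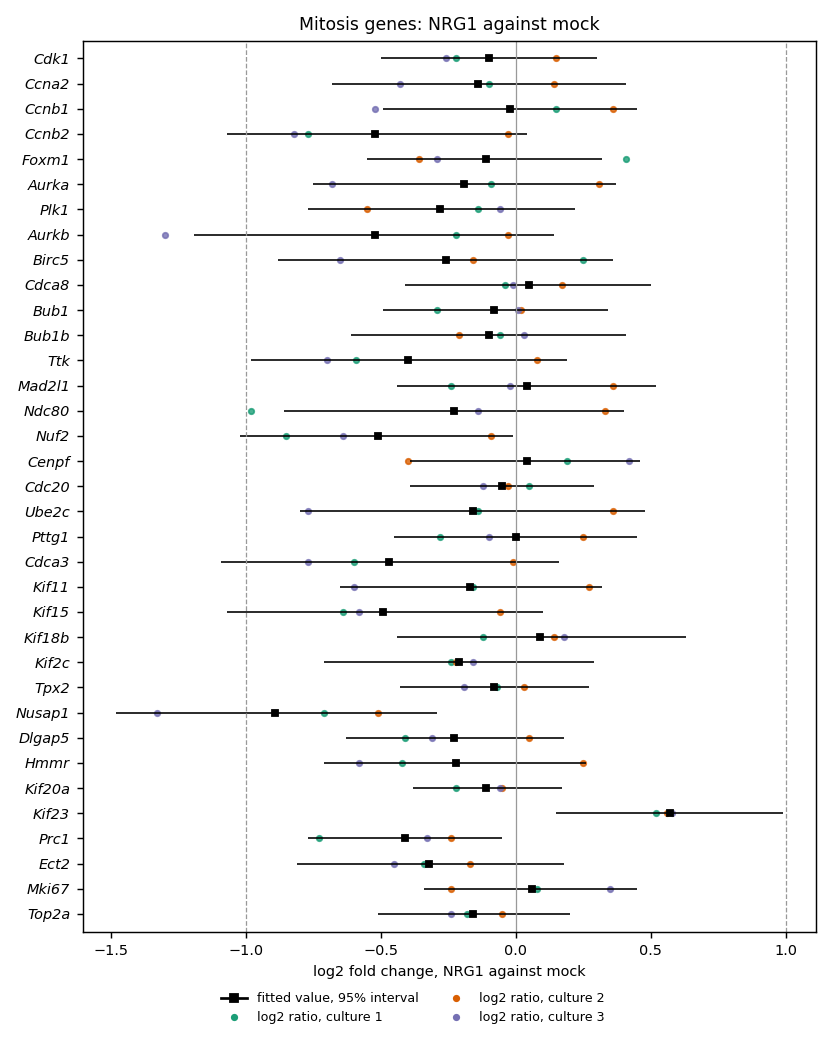
Log2 fold change of NRG1 against mock (horizontal axis) for the 35 tested mitosis genes, with the fitted value and its 95% interval (black squares and lines) and the log2 ratio within each culture (coloured points). Dashed lines mark halving and doubling. Nusap1 lies lowest at -0.89, Kif23 is the one gene whose 3 ratios are all above 0, and no interval reaches 1.

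Among the cyclin and kinase core, Ccnb1, whose cyclin activates Cdk1 at mitotic entry, was at 4.68, 13.0 and 8.83 CPM in mock samples 1, 2 and 3 and at 5.16, 17.1 and 6.01 CPM in the NRG1 samples. Its log2 fold change was -0.02 (SE 0.22, 95% interval -0.49 to 0.45, adjusted p = 0.96). The direction thus differed between cultures, upward in 1 and 2 and downward in 3. Ccnb2, the second B-type cyclin, was at 3.90, 8.21 and 4.58 CPM in mock and 2.19, 8.14 and 2.46 CPM in NRG1 samples, with a log2 fold change of -0.52 (SE 0.26, adjusted p = 0.17). It was nearly equal in culture 2 and lower with NRG1 in the other two. Cdk1, Ccna2 (cyclin A2) and Foxm1, the transcription factor of the G2 programme, had log2 fold changes of -0.10, -0.14 and -0.11, with adjusted p-values of 0.72 to 0.74. Of the kinases that mature the centrosome, Plk1 was at 3.90, 11.1 and 4.34 CPM in mock and 3.48, 7.69 and 4.07 CPM in NRG1 samples (log2 fold change -0.28, SE 0.23, adjusted p = 0.42), and Aurka at 4.16, 5.28 and 5.30 CPM and 3.87, 6.67 and 3.17 CPM (-0.19, SE 0.26, adjusted p = 0.64). Both sets of values overlapped widely. Nek2, a kinase of centrosome separation, had between 1 and 14 counts per sample and was not tested.

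The chromosomal passenger complex corrects the attachment of chromosomes to the spindle. Its kinase Aurkb was at 4.42, 4.10 and 2.89 CPM in mock and 3.74, 4.07 and 1.03 CPM in NRG1 samples, which gave a log2 fold change of -0.52 (SE 0.31, adjusted p = 0.25) that came mainly from culture 3, where 36 and 16 counts were compared. Its partner Cdca8 (borealin) was at 4.81, 8.80 and 6.02 CPM and 4.64, 10.1 and 5.88 CPM (log2 fold change 0.05, SE 0.21, adjusted p = 0.90), and Birc5 (survivin) had a log2 fold change of -0.26 (SE 0.29, adjusted p = 0.56). Of the 7 genes of the spindle checkpoint and kinetochore, none passed. Nuf2, a subunit of the microtubule-binding Ndc80 complex, had the lowest value, -0.51 (SE 0.24, 95% interval -1.02 to -0.01, adjusted p = 0.13), with 6.24, 9.38 and 5.46 CPM in mock and 3.35, 8.93 and 3.36 CPM in NRG1 samples. Mad2l1, the checkpoint protein that holds back the anaphase promoting complex, had the highest, 0.04 (SE 0.22, adjusted p = 0.92), with 6.50, 6.45 and 5.14 CPM in mock and 5.42, 8.48 and 4.98 CPM in NRG1 samples. Between them lay Bub1, Bub1b, Ttk, Ndc80 and Cenpf, with log2 fold changes from -0.40 to 0.04.

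Of the 4 genes of mitotic exit, Pttg1 (securin, which restrains separase until anaphase) was at 2.73, 7.18 and 3.53 CPM in mock and 2.19, 8.70 and 3.23 CPM in NRG1 samples, which gave a log2 fold change of 0.00 (SE 0.21, 95% interval -0.45 to 0.45). Cdca3, a trigger of mitotic entry that is degraded at exit, was at 2.47, 4.84 and 3.29 CPM in mock and 1.55, 4.86 and 1.81 CPM in NRG1 samples (-0.47, SE 0.29, adjusted p = 0.27), again nearly equal in culture 2. Cdc20, the activator of the anaphase promoting complex, and Ube2c, its ubiquitin-conjugating enzyme, had log2 fold changes of -0.05 and -0.16. Among the kinesins, Kif18b, a microtubule depolymerase, was at 2.99, 6.16 and 3.05 CPM in mock and 2.71, 6.90 and 3.42 CPM in NRG1 samples (0.09, SE 0.25, adjusted p = 0.82). Kif15, which helps to keep the spindle bipolar, was at 7.41, 2.79 and 2.65 CPM in mock and 4.64, 2.71 and 1.68 CPM in NRG1 samples (-0.49, SE 0.27, adjusted p = 0.22). It is the one member that was highest in culture 1 in both conditions. Kif11, the motor that separates the spindle poles, and Kif2c, a centromere depolymerase, had log2 fold changes of -0.17 and -0.21.

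The member with the smallest p was Nusap1, which bundles microtubules around chromosomes. It was at 4.16, 6.89 and 3.77 CPM in mock and 2.45, 4.86 and 1.36 CPM in NRG1 samples, or 4.94 ± 1.70 and 2.89 ± 1.79 CPM (SD, n = 3 each). Every NRG1 sample was below its own mock sample, with log2 ratios of -0.71, -0.51 and -1.33, although the groups overlapped. The log2 fold change was -0.89 (SE 0.28, 95% interval -1.48 to -0.29, unadjusted p = 0.0065 by edgeR, adjusted p = 0.033), and the adjusted p was 0.14 with DESeq2 and 0.32 without culture 3. The other spindle assembly factors were closer to 0. Tpx2, the activator of Aurora A on the spindle, was at 10.1, 22.7 and 11.3 CPM in mock and 9.54, 23.5 and 9.69 CPM in NRG1 samples (-0.08, SE 0.17, adjusted p = 0.76), and Dlgap5 and Hmmr had log2 fold changes of -0.23 and -0.22.

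Kif23 was the one member above mock in all 3 cultures. It encodes the motor of centralspindlin, the complex that organises the central spindle for cytokinesis, and was at 4.29, 9.68 and 6.34 CPM in mock and 6.19, 14.6 and 9.43 CPM in NRG1 samples, or 6.77 ± 2.72 and 10.1 ± 4.23 CPM (SD, n = 3 each). The log2 ratios of 0.52, 0.56 and 0.58 were close to each other, and the log2 fold change was 0.57 (SE 0.20, 95% interval 0.15 to 0.99, unadjusted p = 0.011 by edgeR, adjusted p = 0.048). The adjusted p was 0.18 with DESeq2 and between 0.096 and 0.23 with 1 culture left out. Racgap1, the other subunit of centralspindlin, had 8 to 28 counts per sample and was not tested. Its mock samples were at 1.17, 4.10 and 0.964 CPM and its NRG1 samples at 1.03, 3.05 and 0.905 CPM. Prc1, which crosslinks the antiparallel microtubules of the same structure, was at 10.9, 29.0 and 13.7 CPM in mock and 6.45, 24.9 and 10.7 CPM in NRG1 samples, lower with NRG1 in each culture (log2 fold change -0.41, SE 0.17, 95% interval -0.77 to -0.05, adjusted p = 0.095). Kif20a, the kinesin that brings the passenger complex to the midzone, and Ect2, the exchange factor that activates RhoA for furrowing, had log2 fold changes of -0.11 (SE 0.13) and -0.32 (SE 0.23).

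Mki67 and Top2a, the genes most used to mark proliferating cells, did not pass. Mki67, whose protein coats mitotic chromosomes, was at 10.5, 19.6 and 6.66 CPM in mock and 11.1, 16.8 and 8.40 CPM in NRG1 samples, which gave a log2 fold change of 0.06 (SE 0.18, 95% interval -0.34 to 0.45, adjusted p = 0.86). Top2a, the topoisomerase that disentangles sister chromatids, was at 12.2, 21.3 and 9.96 CPM in mock and 10.7, 20.8 and 8.27 CPM in NRG1 samples (-0.16, SE 0.17, 95% interval -0.51 to 0.20, adjusted p = 0.54). In both genes the order of the cultures was the same in mock and NRG1 samples, with culture 2 the highest, then culture 1, then culture 3.

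The summed level of the mitosis genes differed more between culture 2 and the other cultures than between mock and NRG1 samples. Summed over the 37 members, mock samples 1, 2 and 3 were at 232.4, 442.3 and 226.8 CPM and NRG1 samples at 199.7, 442.0 and 191.9 CPM. Culture 2 was thus 1.90 and 1.95 times as high as cultures 1 and 3 in the mock samples, and 2.21 and 2.30 times in the NRG1 samples. In the same sums, the log2 ratio of NRG1 to mock was -0.22 in culture 1, 0 in culture 2 and -0.24 in culture 3. Cultures 1 and 3 differed from each other by less than that, by a factor of 1.02 in mock and 1.04 in NRG1 samples. In bulk RNA, fewer cells expressing these genes and less of their RNA per cell cannot be told apart.

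**Figure D2:**
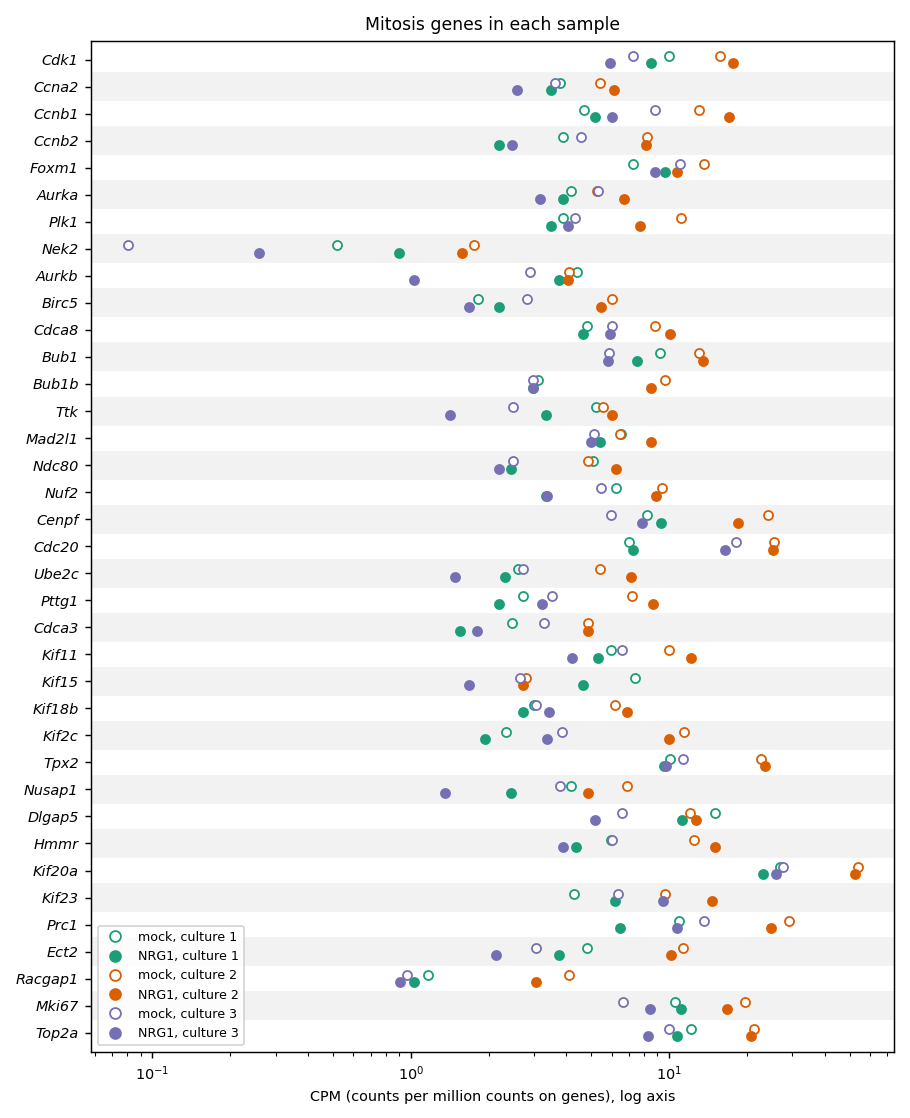
Level of each of the 37 mitosis genes (CPM, log axis) in the 6 samples, with mock as open and NRG1 as filled circles and the cultures in colour. Culture 2 is highest in 31 of 37 genes among mock and in 36 of 37 among NRG1 samples. Open and filled circles of one colour lie close together in many genes but not in all. In culture 3 they lie apart for Aurkb and Nusap1 (log2 ratios -1.3 and -1.33).

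Member by member, culture 2 was the highest of the mock samples in 31 of 37 genes (83.8%, against 23.9% of the tested genes) and the highest of the NRG1 samples in 36 of 37 (97.3%, against 35.1%). The exceptions among mock samples were Aurka, with culture 3 highest by a margin of 5.30 to 5.28 CPM, and Aurkb, Mad2l1, Ndc80, Kif15 and Dlgap5, with culture 1 highest. Among NRG1 samples the exception was Kif15. The sizes differed between genes. Kif2c was at 11.4 CPM in mock sample 2 against 2.34 and 3.85 CPM in mock samples 1 and 3, and Cenpf, a large kinetochore protein, at 24.2 against 8.19 and 5.94 CPM. Ccna2, by contrast, was at 5.42 against 3.77 and 3.61 CPM.

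The differences between cultures were then tested in the same fit, with the mock and the NRG1 sample of a culture as its 2 samples. This comparison was added after the values had been seen, and since both samples come from 1 cell preparation, its p-values describe these preparations and not a condition. All 3 contrasts share samples with each other and are given side by side. Against culture 1, culture 2 was higher at an adjusted p of at most 0.01 in 16 of the 35 members, against 8.98% of all tested genes, with a median log2 difference of 1.05 against 0.04, and it was lower in 0. Kif2c (log2 difference 2.28, adjusted p = 4.6e-05), Cdc20 (1.79, adjusted p = 1.1e-05), Pttg1 (1.65, adjusted p = 0.0011) and Prc1 (1.62, adjusted p = 4e-05) differed most. Culture 3 was lower than culture 2 in 11 of the 35, against 0.534% of all tested genes (52 genes), with a median log2 difference of -1.17 against -0.01, and it was higher in 0. The 11 were Cdk1, Bub1b, Cenpf, Kif2c, Tpx2, Hmmr, Kif20a, Prc1, Ect2, Mki67 and Top2a. Ect2 had the largest difference (-2.08, adjusted p = 0.001), followed by Cenpf (-1.63, adjusted p = 0.0026) and Bub1b (-1.62, adjusted p = 0.0064). The first and the third culture differed less, with Cdc20 higher in culture 3 (log2 difference 1.22, adjusted p = 0.00031) and Kif15 (-1.53, adjusted p = 0.0017) and Dlgap5 (-1.22, adjusted p = 0.00086) lower, that is 1 and 2 of the 35, against 11.9% and 12.5% of all genes.

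The marker levels did not follow the same order. Cultures 2 and 3, whose summed mitosis genes differed by factors of 1.95 and 2.30, had summed Schwann cell markers of 16030 and 16260 CPM in mock and 12710 and 13240 CPM in NRG1 samples. The fibroblast markers in these 4 samples were at 22130 and 14340 CPM in mock and 13780 and 13950 CPM in NRG1 samples, nearly all of it Col1a1. Culture 1, with the Thy1, Dcn and Lum counts, was close to culture 3 in the summed mitosis genes, by a factor of 1.02 in mock and 1.04 in NRG1 samples. The part of the cell mixture in the levels of single members was not tested.

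**Figure D3:**
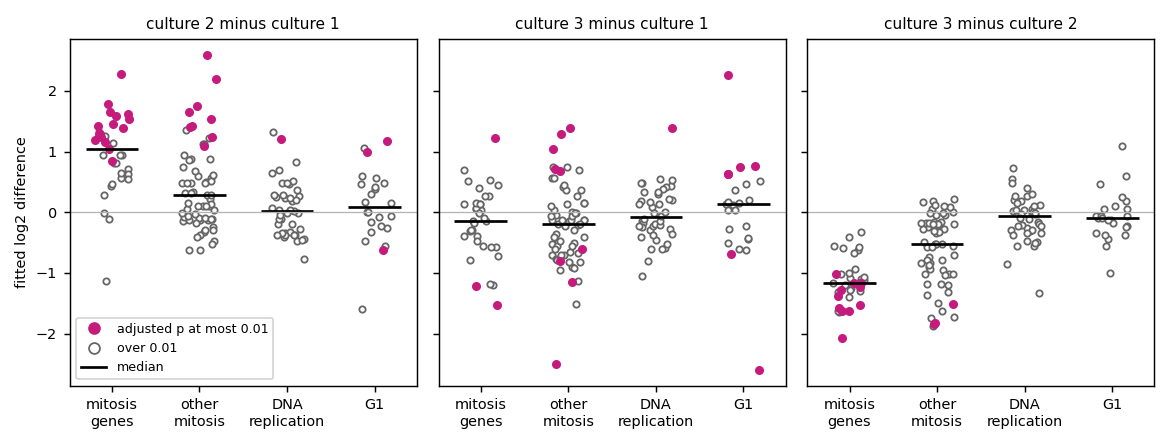
Fitted log2 difference between cultures (vertical axis) for the tested genes of 4 cell cycle lists, with filled points where the adjusted p reached 0.01 or less and bars at the medians. The 35 mitosis genes have medians of 1.05 for culture 2 minus culture 1 and -1.17 for culture 3 minus culture 2, while the DNA replication and G1 genes centre near 0 in both.

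Further genes of the same machinery were taken from a list of condensins, centromere proteins, spindle proteins and anaphase promoting complex subunits, of which 72 had a row and 65 were tested. None of them passed in the NRG1 comparison by edgeR or by DESeq2 (11.8% of all genes did by edgeR), 13 had an unadjusted p under 0.05 (35.7% of all genes), and their median log2 fold change was -0.15, with 45 below and 20 above 0. At an adjusted p of at most 0.05 there were 4 (23.2% of all genes), all with values below 0, among them, named here after their values had been seen, Kif22, a chromosome arm kinesin (-0.51), the condensin subunit Smc2 (-0.45) and Gtse1 (-0.47). Between cultures, 9 of the 65 were higher in culture 2 than in culture 1 (8.98% of all genes). In culture 3, 3 were lower than in culture 2 (0.534% of all genes). The median log2 differences were 0.28 and -0.53, smaller than those of the 35, but the groups of this list differed. Its 14 tested spindle and centrosome genes had medians of 0.81 and -0.92, closer to those of the 35. Of these 14, 5 were higher in culture 2 than in culture 1 and 1 was lower in culture 3 than in culture 2. The remaining groups had medians of -0.01 to 0.17 and of -0.7 to -0.18.

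Of the genes of the earlier phases of the cycle, 2 of 42 tested DNA replication genes and 5 of 24 tested G1 genes passed, beside 11.8% of all genes in either direction. The 2 replication genes rose and 0 fell. The 2 were Mcm5, a subunit of the replicative helicase, and Cdt1, which loads that helicase at origins. Mcm5 was at 2.99, 6.01 and 3.53 CPM in mock and 12.0, 10.1 and 8.53 CPM in NRG1 samples, with no overlap (log2 fold change 1.31, SE 0.25, adjusted p = 0.002). Cdt1 was at 2.47, 2.64 and 3.77 CPM in mock and 7.22, 5.88 and 7.37 CPM in NRG1 samples, also apart (1.19, SE 0.25, adjusted p = 0.0033), with an adjusted p of 0.013 without culture 3 and by DESeq2. Of the 24 G1 cyclins, inhibitors and E2F genes, 3 rose and 2 fell, beside 6.31% and 5.51% of all genes, and the median log2 fold change was -0.03, with 12 genes above and 12 below 0. Ccnd1, the cyclin D1 gene through which mitogens reach the cycle, rose from 338.0, 417.0 and 699.0 CPM in mock to 1020, 1110 and 1560 CPM in NRG1 samples, the groups again apart (1.39, SE 0.13, adjusted p = 1.2e-05). Myc rose by 0.72 (SE 0.13, adjusted p = 0.0017) and Cdk4, the kinase of cyclin D1, by 0.53 (SE 0.13, adjusted p = 0.008), while the pocket protein genes Rb1 and Rbl2, which restrain E2F, fell by 0.71 (SE 0.12, adjusted p = 0.0011) and 0.48 (SE 0.12, adjusted p = 0.0091). Cdk4 and Rbl2 did not pass with any 1 culture left out, with adjusted p-values of 0.014 to 0.027 and 0.014 to 0.077, and Myc did not without culture 1, with 0.014. By DESeq2 with the same block, Rbl2 did not pass either (adjusted p = 0.015). In the fit without the replicate block, the adjusted p-values were 0.21 for Mcm5, 0.18 for Cdt1, 0.20 for Ccnd1, 0.27 for Myc, 0.49 for Cdk4, 0.18 for Rb1 and 0.35 for Rbl2, so that none of the 7 passed. Whether the response of the mitosis list differs from that of these lists was not tested.

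**Figure D4:**
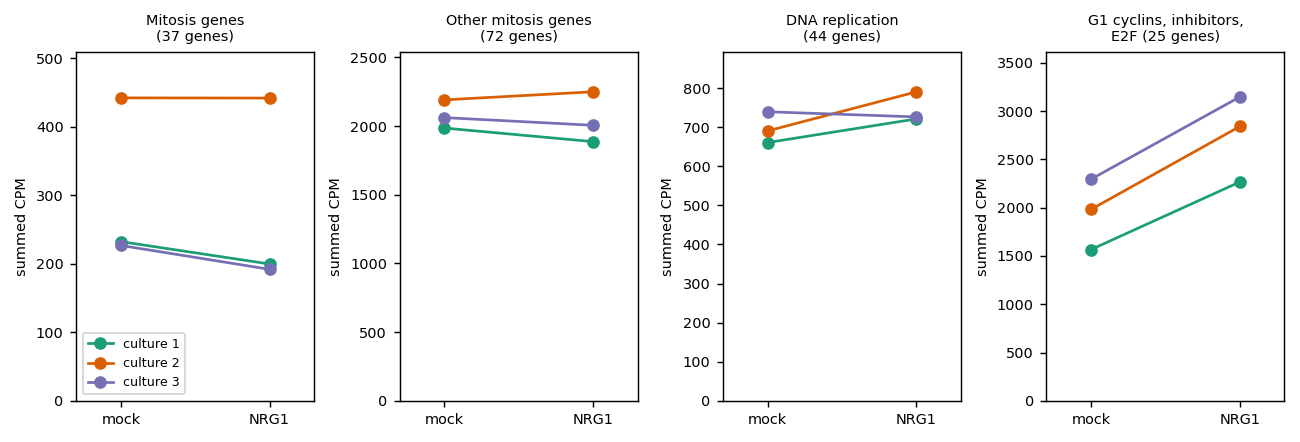
Summed CPM of 4 cell cycle lists in mock and NRG1 samples, with 1 line per culture and axes from 0. The 37 mitosis genes are at 442.3 and 442.0 CPM in culture 2 and between 191.9 and 232.4 CPM in the other cultures, and the sum of the 25 G1 genes is higher with NRG1 in each culture, mainly through Ccnd1, while 12 of the 24 tested G1 genes have a log2 fold change below 0.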

How the data were processed

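RNA of 3 mock and 3 NRG1 samples was measured by poly(A) sequencing. The authors aligned the reads to rn5 with TopHat2 2.0.10 and deposited raw counts per RefSeq gene symbol from HTSeq. Strand settings are not given in the sources used here, so overlapping and antisense genes cannot be told apart. The 5 summary lines per file (50.1 to 53.0% of the total) were left out. Counts were tested with edgeR 4.0.16 (R 4.3.3, limma 3.58.1; TMM, filterByExpr with a minimum count of 10, quasi-likelihood test) on 9740 genes, with the replicate number as a block, Benjamini-Hochberg adjustment over all of them and a threshold of 0.01, after the scripts had been tested on simulated data. The block follows the study's paired design. Across genes, deviations of same-numbered samples from their group means correlated at 0.91, 0.67 and 0.81. CPM are not TMM-scaled, ratios within a culture used log2 CPM (prior count 2), and intervals use the fit's degrees of freedom. DESeq2 1.42.0, another normalization, other filters and leaving out each culture were alternatives. Every member with a row is named, with samples given in full for the lowest and highest fold change of each role. The members and lists were chosen with earlier results of these data known. Promoter sequences are from RefSeq (GRCr8) and were matched by symbol, with no coordinate carried over from rn5.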

Additional observations from a re-analysis of the deposited data

How the results depend on the processing

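The median SE of the members' log2 fold changes was 0.23, against 0.14 over all tested genes, at a median of 54 counts per sample, and 3 cultures limit every test. The number of members called was 0 in either direction under each alternative other than the looser threshold of 0.05, where it was 1 higher (Kif23) and 1 lower (Nusap1). The median log2 fold change of the members stayed between -0.26 and -0.09. Without the replicate block no gene at all was called, so that the replication and the G1 lists each had 0, and the log2 fold changes of Ccnb1 (0.09), Cenpf (-0.10), Ube2c (0.02), Pttg1 (0.07) and Mki67 (-0.02) changed sign. With RLE normalization Pttg1 was at 0.01. With DESeq2, 1 replication gene was called (Mcm5), among 1023 genes in all. The culture differences were fewer by DESeq2. It called 11 members higher in culture 2 than in culture 1 (803 genes in all), against 16 by edgeR. It called 9 lower in culture 3 than in culture 2 (68 genes in all), against 11 by edgeR. Without the low-count filter, 1 other mitosis gene was called (Kif22), among 1705 genes in all. In that setting 24 members were higher in culture 2 than in culture 1 (1154 genes in all), and 22 were lower in culture 3 than in culture 2 (147 genes). At 0.05, 4 of 65 other mitosis genes and 8 of 42 replication genes were called, beside 23.2% of all genes. At that threshold 24 members were higher in culture 2 than in culture 1 (1440 genes), and again 22 were lower in culture 3 than in culture 2 (146 genes). With 1 culture left out, the counts ranged from 0 to 1 for other mitosis genes (Iqgap3, without culture 1), 1 to 3 for replication and 2 to 3 for G1 genes. Without cultures 1, 2 and 3 in turn, 1191, 916 and 661 genes were called in all. In the same settings the sign changed in 17 members, all with main values between -0.26 and 0.06, with ranges of -0.45 to 0.15 for Aurka, -0.41 to 0.01 for Birc5, -0.13 to 0.02 for Bub1, -0.30 to 0.06 for Ccna2, -0.27 to 0.30 for Ccnb1, -0.07 to 0.02 for Cdc20, -0.02 to 0.10 for Cdca8, -0.25 to 0.00 for Cdk1, -0.13 to 0.32 for Cenpf, -0.33 to 0.02 for Foxm1, -0.42 to 0.10 for Kif11, -0.12 to 0.17 for Mad2l1, -0.07 to 0.23 for Mki67, -0.56 to 0.11 for Ndc80, -0.17 to 0.09 for Pttg1, -0.14 to 0.00 for Tpx2 and -0.54 to 0.19 for Ube2c. The causes of these changes were not tested.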
